A study of Mus musculus with 2 samples.

Results

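The genes described here are 10 receptors, adhesion molecules and ligands of blood vessels: Aplnr, Kdr, Flt1, Tek, Tie1, Pecam1, Cdh5, Eng, Vegfa and Angpt1. They were picked by gene symbol, with the array's older name Agtrl1 read as Aplnr. The rule used no measured value, but earlier results of these data were known when the genes were chosen. They are 10 of 16390 genes on the array, each with 1 probe, and all 10 were detected in all 4 hearts, as were 11698 genes in all. The hearts came from 6-month-old male mice of the C57BL/6J background that had been fed for 3 months. They were a calorie-restricted and a freely fed (ad libitum) cardiomyocyte-specific Sirt1 knockout heart, and a calorie-restricted and a freely fed control heart. Restriction cut the food by 40%. Sirt1 is a NAD-dependent deacetylase, and the study asked what it does in cardiomyocytes when caloric restriction protects the heart. By the labels the deletion is in cardiomyocytes, so the endothelial cells of the knockout hearts are not its named target. The promoter that drives the deletion is not given in the sources used here.

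Endothelial cells line every vessel of the heart and sense growth factors through receptors on their surface. The VEGF receptors Kdr and Flt1 bind Vegfa, which hypoxic tissue releases: Kdr carries most of the growth signal, while Flt1, much of it made as a soluble form, binds Vegfa tightly and acts largely as a decoy. The Tie receptors Tek and Tie1, with the ligand Angpt1, keep vessels quiet and sealed. Aplnr, a G protein-coupled receptor for apelin, acts in sprouting vessels and raises the heart's contractility.

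The promoters of the VEGF receptor pair are shown because Flt1 differed between genotypes by over 1.5-fold on both diets and Kdr did not. RefSeq (GRCm38.p6) gave windows of 250 bases before to 50 bases after the start site for 6 of the 10 genes: Kdr, Flt1, Tek, Tie1, Eng and Vegfa. The Flt1 window is chr5:147725962-147726261 and the Kdr window is chr5:75978406-75978705, both on the minus strand and printed 5′ to 3′ along the gene. Capitals mark the letters AGGAAG, a core bound by ETS factors, which are known regulators of endothelial genes.
Flt1: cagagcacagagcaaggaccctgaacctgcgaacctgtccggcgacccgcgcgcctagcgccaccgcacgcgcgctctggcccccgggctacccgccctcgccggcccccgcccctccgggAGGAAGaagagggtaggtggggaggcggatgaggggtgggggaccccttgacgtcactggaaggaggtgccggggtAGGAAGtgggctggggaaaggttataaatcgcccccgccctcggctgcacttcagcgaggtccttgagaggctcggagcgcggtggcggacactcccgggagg
Kdr: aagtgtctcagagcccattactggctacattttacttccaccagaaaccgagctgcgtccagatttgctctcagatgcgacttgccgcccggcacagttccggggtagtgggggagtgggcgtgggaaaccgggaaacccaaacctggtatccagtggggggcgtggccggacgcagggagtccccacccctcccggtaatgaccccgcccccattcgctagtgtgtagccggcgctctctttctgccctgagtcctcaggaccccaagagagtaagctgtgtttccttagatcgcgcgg
Read on both strands, AGGAAG stood at 2 places of the Flt1 window, 129 and 53 bases before the start site, and at none of the Kdr window. Tie1 and Eng also held it, which makes 3 of the 7 windows of these 6 genes, against 35.4% of 32851 promoter windows of the same length. The hypoxia core ACGTG stood in 1 of 7 windows, 1 of the 2 windows of Vegfa, and in 19.6% of all windows. That window, chr17:46025114-46025413 on the minus strand, belongs to the start site further along the gene. The window of the upstream start site, chr17:46032328-46032627, held no match, so no hypoxia core was found there. Only these exact strings were searched, and the Kdr window does hold the shorter GGAA, both as printed and as its reverse complement TTCC. A match is a string of letters and says nothing of binding in these hearts.

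Each genotype had 1 array of 2 colours, with the restricted heart in Cy3 and the freely fed heart in Cy5. With 1 heart per condition there is no spread between animals, hence no test, and every difference below describes these 4 hearts. The number of arrays limits the precision. Diet and dye cannot be told apart within an array, and genotype and array cannot be told apart between arrays. The only error that could be measured was spot noise, the SD of 24 positive-control spots of a kind on an array. The larger SD of the 2 kinds was taken in each comparison. On the log2 scale it was 0.09 for the diet difference on the knockout array, 0.06 on the control array, and 0.16 and 0.18 for knockout over control on restriction and on free feeding. What those control spots hold is not given in the sources used here, and their 2 kinds averaged -0.78 and -0.26 on the knockout array and -0.09 and -0.44 on the control array. Between 74.0% and 80.7% of probes were detected in a heart. Values are normalized signals in log2 scanner units, and an offset of 50 units pulls the differences of dim genes towards 0.

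Sirt1 itself had log2 signals of 7.51 in the restricted and 7.07 in the freely fed knockout heart, against 7.53 in the restricted and 7.11 in the freely fed control heart. Knockout over control was -0.02 on restriction and -0.04 on free feeding (log2), and it turned to 0.36 and 0.23 with the local background subtracted. Where the probe lies against the excised exons is not given, and cells other than cardiomyocytes keep the gene, so these values do not check the genotype.

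**Figure D1:**
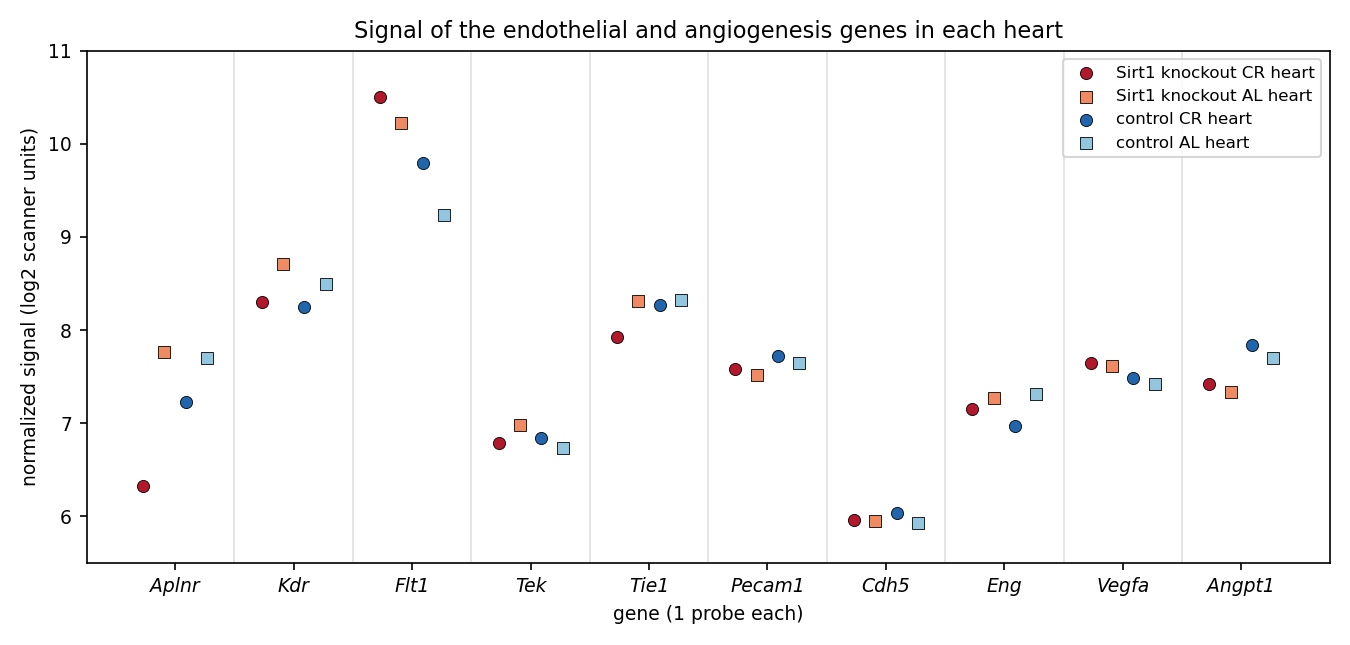
Normalized signal (log2 scanner units, vertical axis) of the 10 genes (horizontal axis) in each of the 4 hearts, 1 point per heart. Aplnr was lowest in the restricted knockout heart at 6.33, where Flt1 was highest at 10.51.

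Within the knockout array, 1 of the 10 genes, Aplnr, was at least 1.5-fold lower on restriction, where 0.758% of 12141 detected genes were, and none was at least 1.5-fold higher, where 0.758% were. Within the control array, 0 of the 10 passed 1.5-fold in either direction, where 1.15% of 12656 genes did. Aplnr was also the 1 gene whose diet response differed between the arrays by at least 1.5-fold, lower in the knockout, where 0.513% of 11698 genes were lower and 0.889% differed either way. Knockout over control, 1 gene was higher on restriction, Flt1, where 1.44% of 11957 genes were, and 1 was lower, Aplnr, where 1.06% were, 2.5% either way. On free feeding Flt1 alone of the 10 was higher and none was lower, where 2.59% of 12783 genes were higher and 4.36% differed either way. These shares cover every gene, and 1 or 2 genes of 10 give no share of their own that could be set against them. Both knockout hearts lay on 1 side of both control hearts for 4 of the 10 genes, above for Flt1 and Vegfa and below for Pecam1 and Angpt1. The same held for 51.4% of 11698 genes, so hearts that do not overlap set no gene apart here.

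The median over the 10 genes lay near 0 in each comparison. It was -0.05 for restriction on the knockout array and 0.07 on the control array, beside 0.00 over all genes on both. For knockout over control it was -0.06 on restriction and 0.04 on free feeding, beside 0.00 and 0.01 over all genes. The diet response was lower in the knockout than in the control for 9 of the 10 genes, with Eng the exception, and the median difference was -0.12, beside -0.00 over all genes, of which 49.0% were above 0. For Pecam1, Vegfa and Angpt1 that difference was within the spot noise of 0.08, and 6 of the 10 were lower with the local background subtracted, where Flt1 turned to 0.42, Tie1 to 0.87 and Vegfa to 0.08.

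**Figure D2:**
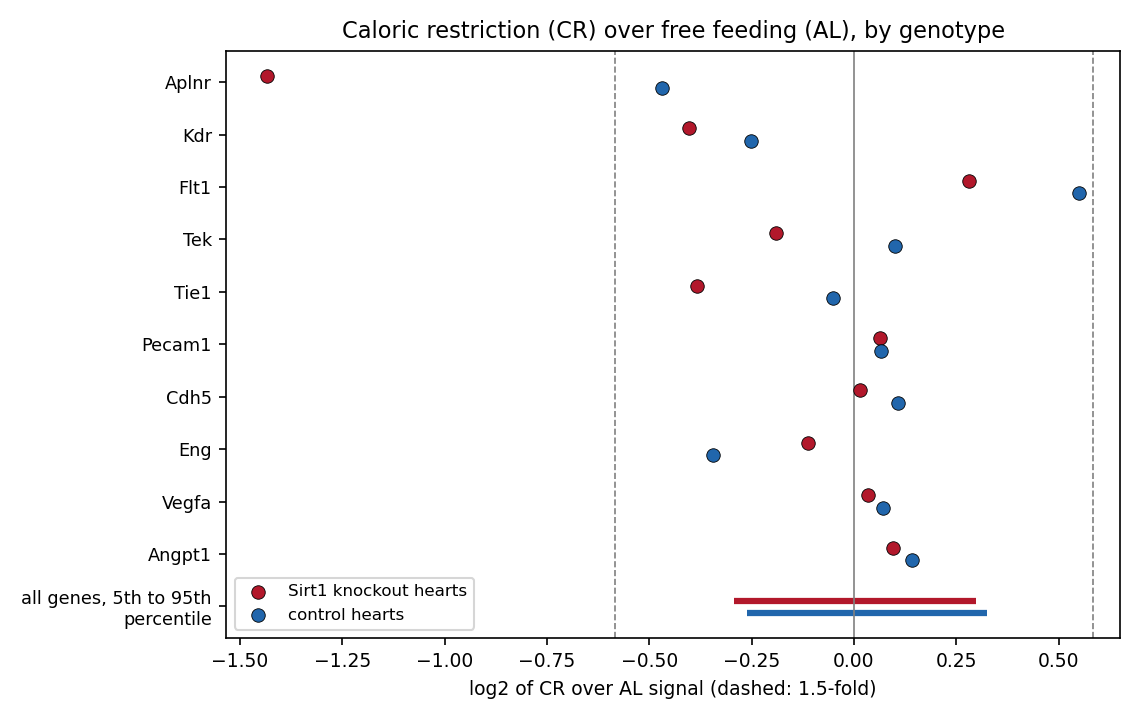
Log2 of caloric restriction over free feeding (horizontal axis) for each of the 10 genes, in the knockout pair and in the control pair of hearts. Bars give the 5th to 95th percentile of all detected genes and dashed lines 1.5-fold. Aplnr at -1.43 in the knockout pair is the 1 point beyond the dashed lines.

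Aplnr, the apelin receptor, had the widest range of the 10 over the 4 hearts. Its log2 signal was 6.33 in the restricted and 7.76 in the freely fed knockout heart, against 7.23 in the restricted and 7.70 in the freely fed control heart. The restricted knockout heart stood alone at the low end, and the freely fed hearts of both genotypes were 0.06 apart. Between diets the difference was -1.43 in the knockout pair, a 2.70-fold lower signal, and -0.47 in the control pair. Among detected genes these were the 6th lowest of 12141 and the 105th lowest of 12656. The knockout response minus the control response was -0.96, the 12th lowest of 11698. Knockout over control on restriction was -0.90, the 20th lowest of 11957.

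The spots behind these values were dim in the restricted knockout heart. The scanner signal over the blank spots was 23.8 units in the restricted and 152.1 in the freely fed knockout heart, against 109.7 in the restricted and 141.5 in the freely fed control heart. The glass around the Aplnr spot also differed, reading 84.9 and 140.2 units in the knockout hearts and 137.1 and 116.5 units in the control hearts, restricted heart first in each pair. With that local reading subtracted, restriction over free feeding was -0.42 in the knockout pair and knockout over control on restriction was -0.41, neither past 1.5-fold, and the difference of the responses was -0.28. With the offset removed as well these were -0.92, -0.91 and -0.67. The small knockout excess on free feeding turned to -0.13 with the local background subtracted. In the authors' deposited table, whose ratios carry no offset, Aplnr stood at -2.82 in the knockout pair and -0.73 in the control pair. The direction on the knockout array was the same under all 8 alternatives, 3 of which cannot move a gene with 1 detected probe, and the size ran from -2.82 to -0.42.

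**Figure D3:**
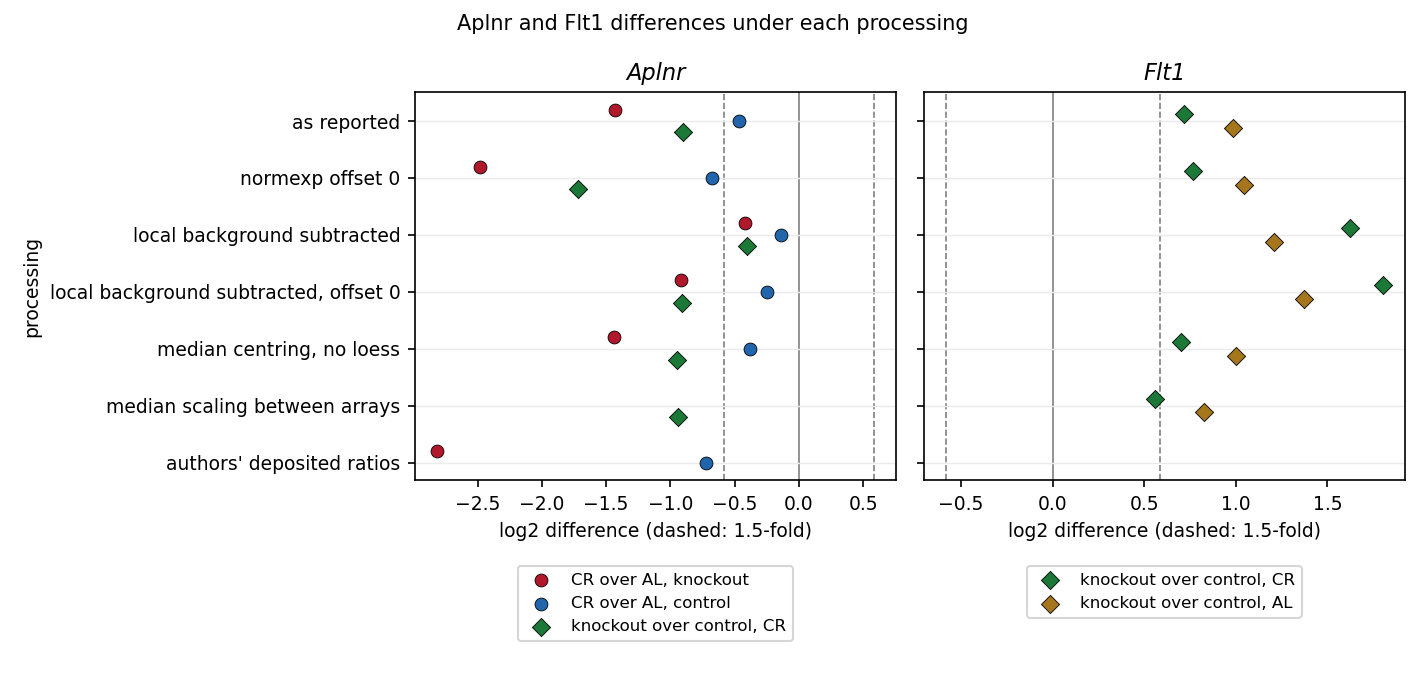
Log2 differences (horizontal axis) of Aplnr and Flt1 under each processing (vertical axis), 1 point per comparison, with dashed lines at 1.5-fold. The 3 plotted Aplnr differences stayed below 0 and were inside 1.5-fold with the local background subtracted at offset 50, and both plotted Flt1 differences, knockout over control, stayed above 0, the one on restriction at 0.56 under median scaling.

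Apln is the ligand of that receptor. Its log2 signals were 6.30 in the restricted and 6.44 in the freely fed knockout heart, against 6.39 in the restricted and 6.62 in the freely fed control heart. The diet difference of Apln was -0.13 in the knockout pair and -0.22 in the control pair. This spot is dim, and with offset 0 the same differences were -0.35 and -0.51. Knockout over control was -0.09 on restriction and -0.18 on free feeding, and -0.93 and -0.79 with the local background subtracted and no offset, both past 1.5-fold. Of the 6 measured genes of apelin signalling other than the receptor, Apln among them, 0 passed 1.5-fold in any comparison as reported. Of all genes 0.889% to 4.36% passed either way, depending on the comparison, so 0 of 6 does not set these genes apart. On the knockout array the highest was Gna13, a G protein alpha subunit, at 0.16, and the lowest was Gnai3, an inhibitory alpha subunit, at -0.24.

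Flt1, the decoy-type VEGF receptor, was higher in both knockout hearts than in both control hearts. Its log2 signal was 10.51 in the restricted and 10.23 in the freely fed knockout heart, against 9.79 in the restricted and 9.24 in the freely fed control heart. The genotypes did not overlap, and in both the restricted heart was the higher. Knockout over control was 0.72 on restriction and 0.99 on free feeding, 1.64-fold and 1.98-fold, the 82nd highest of 11957 and the 60th highest of 12783 genes. Both are between-array values, and the first was 0.56 when channels were scaled by their medians. The diet difference was 0.28 in the knockout pair and 0.55 in the control pair, just under 1.5-fold. The knockout response minus the control response was -0.27, and it turned to 0.42 with the local background subtracted, where the knockout diet difference was 0.82 and knockout over control was 1.62 on restriction and 1.21 on free feeding. With median centring in place of loess the control diet difference was 0.65, past 1.5-fold. Whether the probe reads the soluble form of Flt1, the membrane form or both is not given in the sources used here.

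Kdr, the main signalling receptor for Vegfa, did not follow Flt1. Its log2 signals were 8.31 in the restricted and 8.71 in the freely fed knockout heart, against 8.24 in the restricted and 8.49 in the freely fed control heart. The restricted heart was the lower in both pairs, at -0.40 in the knockout and -0.25 in the control. The knockout hearts were higher by 0.06 on restriction and 0.22 on free feeding. With the local background subtracted and no offset, the knockout diet difference was -0.71, and knockout over control turned to -0.56 on restriction and -0.05 on free feeding.

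Nrp1, a co-receptor that presents VEGF to Kdr, had log2 signals of 8.77 in the restricted and 8.76 in the freely fed knockout heart, against 8.29 in the restricted and 7.78 in the freely fed control heart. Like Flt1 it was higher in both knockout hearts, by 0.47 on restriction and 0.99 on free feeding. Flt4, the receptor of lymphatic vessels, was at 5.81 and 5.77 in the knockout hearts and 5.86 and 5.88 in the control hearts, restricted heart first, and was detected in 1 heart.

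Vegfa, the ligand of both receptors, was nearly level. Its log2 signals were 7.65 in the restricted and 7.62 in the freely fed knockout heart, against 7.49 in the restricted and 7.42 in the freely fed control heart. The diet difference of Vegfa was 0.03 in the knockout pair and 0.07 in the control pair. Knockout over control was 0.16 on restriction and 0.20 on free feeding, close to the spot noise of 0.16 and 0.18. These became 0.82 and 0.74 with the local background subtracted. Vegfb, a ligand of Flt1 and not of Kdr, had log2 signals of 11.95 in the restricted and 11.90 in the freely fed knockout heart, against 12.37 in the restricted and 12.57 in the freely fed control heart. The knockout hearts were lower in Vegfb, at -0.42 on restriction and -0.66 on free feeding. With the local background subtracted both were near 0, at 0.014 and 0.016. The diet differences of Vegfb, 0.05 in the knockout pair and -0.20 in the control pair, were then -0.010 and -0.008.

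**Figure D4:**
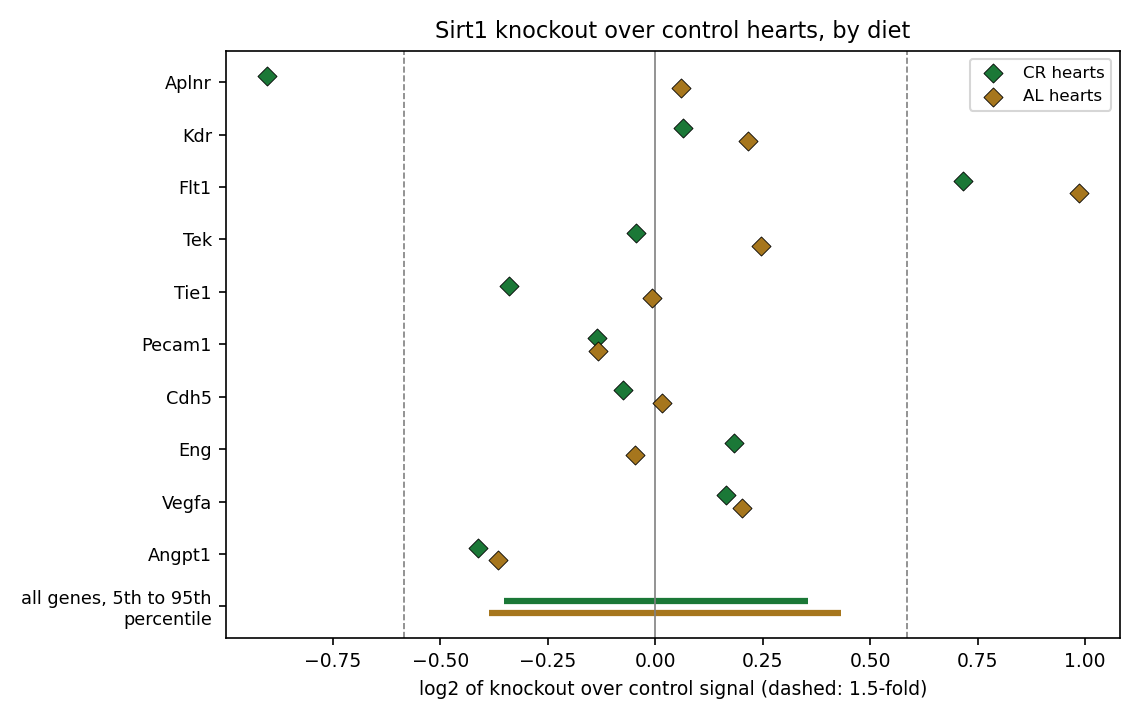
Log2 of Sirt1 knockout over control signal (horizontal axis) for each of the 10 genes, in restricted and in freely fed hearts. Bars give the 5th to 95th percentile of all detected genes and dashed lines 1.5-fold; Flt1 lies above 1.5-fold on both diets and Aplnr below it on restriction.

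Of the receptors of the angiopoietin axis, Tek, which binds Angpt1, had log2 signals of 6.79 in the restricted and 6.98 in the freely fed knockout heart, against 6.84 in the restricted and 6.74 in the freely fed control heart. Restriction over free feeding was -0.19 in the knockout pair and 0.10 in the control pair, so the pairs pointed opposite ways. The difference of the responses was -0.29, and it ran from -0.67 to -0.29 over the alternatives. Knockout over control was -0.04 on restriction and 0.25 on free feeding, the second at 0.61 with the local background subtracted and no offset. Tie1, an orphan partner of Tek, had log2 signals of 7.93 in the restricted and 8.31 in the freely fed knockout heart, against 8.27 in the restricted and 8.32 in the freely fed control heart. The restricted knockout heart was the low one, at -0.38 against its freely fed partner and -0.34 against the restricted control heart. The glass around this spot was brighter than the spot in the freely fed knockout heart. Signal minus surround was -34.0 units there and 16.5 units in the restricted knockout heart, against 141.7 in the restricted and 158.3 in the freely fed control heart. After subtraction of the local background the knockout diet difference of Tie1 turned to 0.66, and knockout over control was -1.07 on restriction and -1.94 on free feeding, so its order among the hearts rests on that choice.

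Angpt1, the activating ligand of Tek, made mostly by pericytes and other cells around vessels, was lower in both knockout hearts. Its log2 signals were 7.42 in the restricted and 7.33 in the freely fed knockout heart, against 7.84 in the restricted and 7.70 in the freely fed control heart. Between genotypes the difference was -0.41 on restriction and -0.37 on free feeding, under 1.5-fold. Both kept that direction under all 8 alternatives, between -0.55 and -0.17. Averaging probes, dropping the detection filter and keeping only brighter genes are among them and cannot move a gene with 1 detected probe. Diet made a difference of 0.09 in the knockout pair and 0.14 in the control pair. Angpt2, a context-dependent antagonist, was dim, with log2 signals between 6.15 and 6.21 in the 4 hearts. Knockout over control on free feeding was -0.04, and it turned to 0.61 with the local background subtracted and no offset, so the narrow range rests on the processing. Of 8 further genes of the axis, Angpt2 among them, 0 passed 1.5-fold in any comparison as reported. Between 0.889% and 4.36% of all genes did so either way, so 0 of 8 does not set the axis apart.

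The adhesion molecules of endothelial junctions varied least. Pecam1, a homophilic adhesion molecule, had log2 signals of 7.58 in the restricted and 7.52 in the freely fed knockout heart, against 7.72 in the restricted and 7.65 in the freely fed control heart. Restriction over free feeding was 0.06 in the knockout pair and 0.07 in the control pair. Knockout over control was -0.14 on restriction and -0.13 on free feeding, within spot noise, and -0.97 and -0.63 with the local background subtracted. Cdh5, the cadherin of endothelial junctions, lay between 5.93 and 6.04 in the 4 hearts. Its spots were only 7.26 and 5.29 units above the blanks in the knockout hearts and 11.9 and 4.40 in the control hearts, restricted heart first, so a difference could hardly be seen on this probe. In the authors' deposited table, with no offset, Cdh5 stood at 0.31 in the knockout pair and 1.08 in the control pair.

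Eng, a co-receptor for BMP9-type ligands of the TGF-beta family, had log2 signals of 7.16 in the restricted and 7.27 in the freely fed knockout heart, against 6.97 in the restricted and 7.32 in the freely fed control heart. The restricted control heart was the low one. Restriction over free feeding was -0.11 in the knockout pair and -0.34 in the control pair, which made Eng the 1 gene of the 10 with a higher response in the knockout, by 0.23. In the authors' deposited table the control pair stood at -0.60, past 1.5-fold. With the local background subtracted and no offset, the knockout pair turned to 0.17 and knockout over control on free feeding was -0.61.

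The other genes of these pathways were taken from 13 lists of 157 genes without the 10. The lists were chosen with earlier results of these data known, so the shares below are descriptions and not a test against all genes. On the knockout array 3 of 127 measured genes were at least 1.5-fold higher on restriction (2.36%) and 4 lower (3.15%), beside 0.758% of all genes each way. On the control array 0 of 130 were higher and 1 was lower (0.769%), beside 0.814% and 0.34% of all genes. For the difference of the responses 6 of 126 were higher and 2 lower, beside 0.376% and 0.513% of all genes. Knockout over control, 4 of 129 were higher and 3 lower on restriction, beside 1.44% and 1.06%, and 7 of 130 were higher and 2 lower on free feeding, beside 2.59% and 1.77%. The median over the lists was within 0.05 of 0 in every comparison.

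The genes past 1.5-fold were spread over several lists. Depp1, a FOXO target known from vessels, had log2 signals of 9.59 in the restricted and 7.99 in the freely fed knockout heart, against 8.97 in the restricted and 8.46 in the freely fed control heart. Restriction over free feeding was 1.61 in the knockout pair and 0.52 in the control pair. Among modulators of angiogenesis, the matricellular Ccn2 was at 1.42 and the metalloproteinase inhibitor Timp3 at 1.12 in the knockout pair, and Sparc, a collagen-binding matricellular protein, was at -0.90. Under local background subtraction Ccn2 was at 0.57 and Sparc at -0.22 there, neither past 1.5-fold. Egln3, an oxygen-sensing prolyl hydroxylase, was at -0.76 and the secreted endothelial protein Egfl7 at -0.65. The endothelial lectin Cd93 was at -0.73, and at 0.07 with the local background subtracted. In the control pair the tight junction gene Cldn5, at -0.63, was the 1 gene past 1.5-fold, and it was at -0.54 with the local background subtracted.

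The response was higher in the knockout than in the control for Depp1 by 1.09, Ccn2 by 0.95, Id1 by 0.81, Timp3 by 0.76, Klf4 by 0.70 and Hey1 by 0.66. Id1 is a target of BMP signalling and Hey1 of Notch, and Klf4 is a flow-responsive transcription factor. It was lower for Sparc, at -0.67, and for the ETS factor Ets2, at -0.64. With the local background subtracted Ccn2 turned to -0.21, and Hey1 at 0.40, Klf4 at 0.44 and Sparc at -0.26 were no longer past 1.5-fold.

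Between genotypes, the vascular peptide Adm was higher in the knockout by 0.94 on restriction and 0.74 on free feeding. Robo4, an endothelial guidance receptor, was higher by 0.86 on restriction and 0.78 on free feeding. Ctnnb1, the junction and Wnt protein beta-catenin, was higher by 0.76 and 1.05 in the same order of diets. These 3 genes were past 1.5-fold on both diets, as Flt1 was, and lay between 1.25 and 1.55 with the local background subtracted. On restriction Depp1 was higher by 0.62, and Egfl7 at -0.86, the protein C receptor Procr at -0.61 and the sialomucin Cd34 at -0.60 were lower. Under median scaling Depp1 was at 0.52, and with the local background subtracted Procr was at -0.49, both inside 1.5-fold. That subtraction put Depp1 at 1.75, Egfl7 at -1.78 and Cd34 at -1.23, and offset 0 put Procr at -1.40. On free feeding Nrp1, Sparc at 0.74, the fatty acid carrier Cd36 at 0.64 and the protease Adamts1 at 0.62 were higher, and the BMP target Id3 at -0.68 and Vegfb were lower. Once local background was taken off, Id3 was at -0.36 and Adamts1 turned to -0.37, while Cd36 was at 6.36 and Sparc at 2.05, and under median scaling Cd36 was at 0.32.

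**Figure D5:**
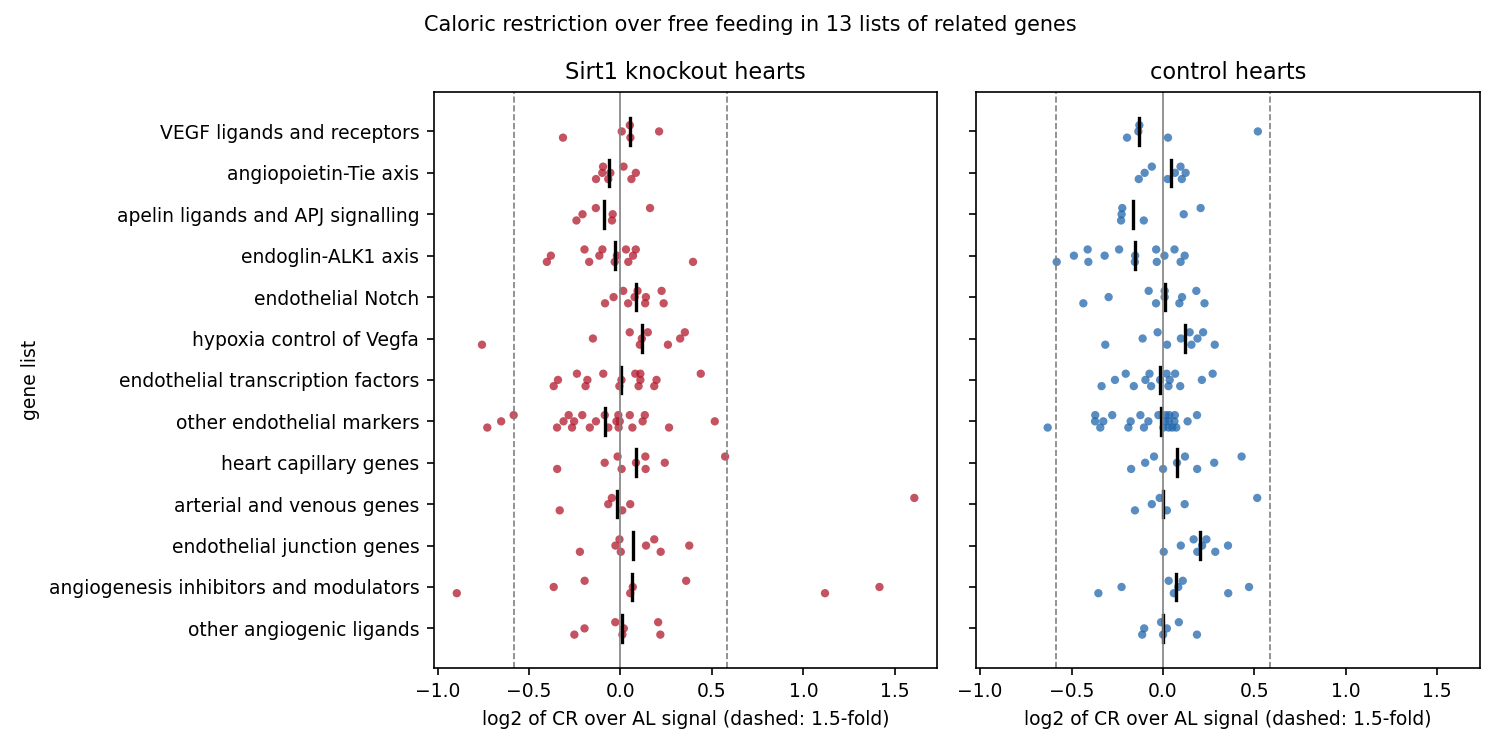
Log2 of caloric restriction over free feeding (horizontal axis) for the detected genes of 13 related lists (vertical axis), 1 point per gene, in knockout hearts and in control hearts. Black ticks mark list medians, which lie between -0.09 and 0.12 in the knockout pair and between -0.16 and 0.20 in the control pair.

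Whether the hearts held as much endothelium was looked at through 32 endothelial markers, 5 of them among the 10 genes. Of these, 30 were on the array, 28 were detected in all 4 hearts, and no marker on the array was undetected in every heart. Their mean log2 signal was 7.38 in the restricted and 7.52 in the freely fed knockout heart, against 7.44 in the restricted and 7.52 in the freely fed control heart. Their summed signal was 5631 and 6587 units in the knockout hearts and 6235 and 6957 units in the control hearts, restricted heart first. On the knockout array 20 of 28 were below 0, with a median of -0.11, and on the control array 14 of 29, with a median of 0.00. Knockout over control, 11 of 28 were above 0 on restriction, with a median of -0.08. On free feeding 11 of 29 were above 0, with a median of -0.01. In bulk RNA, fewer endothelial cells and less RNA per cell cannot be told apart.

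Markers of other cell types also differed between the hearts in which Aplnr differed, though not always in the direction of Aplnr. Of 10 macrophage markers on the array, 9 were detected in all 4 hearts, and their mean log2 signal was 7.20 in the restricted and 7.59 in the freely fed knockout heart, against 7.01 in the restricted and 7.17 in the freely fed control heart. Their summed signal ran from 1739 to 2758 units in the knockout hearts and from 1438 to 1767 in the control hearts. On the knockout array 8 of 9 were below 0, with a median of -0.34, and on the control array 7 of 10, with a median of -0.15. All 10 fibroblast markers were detected, with a mean of 8.33 in the restricted and 8.81 in the freely fed knockout heart, against 8.21 in the restricted and 8.48 in the freely fed control heart. On the knockout array 8 of 10 fibroblast markers were below 0, with a median of -0.25, and on the control array 7 of 10, with a median of -0.24. At least 1.5-fold lower on the knockout array were 3 fibroblast and 3 macrophage markers, beside 0.758% of all genes. All 10 markers of pericytes and smooth muscle, among the sources of Angpt1, were detected, with means of 7.57 and 7.59 in the knockout hearts and 7.45 and 7.37 in the control hearts, restricted heart first. Knockout over control, 6 of these 10 were above 0 on restriction, with a median of 0.04, and 9 of 10 on free feeding, with a median of 0.10, and Rgs5, at 0.95 and 1.23, was the 1 marker past 1.5-fold on either diet. All 10 cardiomyocyte markers on the array were detected, with means of 13.29 and 13.30 in the knockout hearts and 13.14 and 12.88 in the control hearts, restricted heart first. Their summed signal ran from 186329 to 213790 units in the knockout hearts and from 182436 to 189806 in the control hearts. Beside the higher Flt1 and Nrp1 of the knockout on free feeding, 8 of the 10 were above 0, with a median of 0.32, and 3 were past 1.5-fold: the myosin heavy chain Myh6 at 1.53, the myosin-binding protein Mybpc3 at 0.94 and the titin gene Ttn at 0.65. On restriction 6 of 10 were above 0, with a median of 0.13. The diet response of 8 of the 10 was lower in the knockout, with a median of -0.22. Cardiomyocyte markers were not alone in this. Knockout over control on free feeding, 10 of 10 macrophage markers were above 0, with a median of 0.31 and 3 at least 1.5-fold higher. For fibroblast markers it was 7 of 10, with a median of 0.42 and 4 at least 1.5-fold higher, beside 2.59% of all genes. The diet response was also lower in the knockout for 7 of 9 macrophage and 7 of 10 fibroblast markers. Knockout over control on restriction, where Aplnr was lower, 8 of 9 macrophage markers were above 0, with a median of 0.17. For fibroblast markers it was 8 of 10, with a median of 0.19. The part of these cells in the results was not tested.

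Over the 4 hearts the genes with a pattern closest to Aplnr, by Euclidean distance of log2 signals after each gene's mean was taken off, were Fstl1 at 0.35, Slc41a3 at 0.43, Tyrobp at 0.44, Dcakd at 0.45 and Cd74 at 0.45. The median distance over 11697 genes was 1.16. Fstl1, a secreted glycoprotein, had log2 signals of 8.17 in the restricted and 9.13 in the freely fed knockout heart, against 8.87 in the restricted and 9.41 in the freely fed control heart. Tyrobp, a signalling adaptor of myeloid cells, had 7.01 in the restricted and 8.04 in the freely fed knockout heart, against 7.50 in the restricted and 8.45 in the freely fed control heart. Each of the 5 was lowest in the restricted knockout heart, as Aplnr was. They were picked for nearness to Aplnr over these same values, so that likeness follows from the choice and is no separate result. With 4 hearts on 2 arrays this is a description of 4 values per gene.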

How the data were processed

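Total RNA of 4 mouse hearts was hybridised to 2 arrays of 2 colours (Cy3 read at 532 nm, Cy5 at 635 nm), per the labels. The deposited scanner files hold spot intensity and the intensity around each spot, not normalized, per the file headers. In the authors' deposited table the values are log2 ratios, Cy3 over Cy5, and they matched scanner signals less the blank mean, shifted by 1 constant per array, within 0.001 for 17404 of 17405 control probes and 16554 of 16555 knockout probes. From the intensities, limma 3.58.1 (R 4.3.3) applied normexp with an offset of 50, loess within arrays and Aquantile between them. A probe was detected above the trimmed mean of 2736 blank spots plus 2 SD. The brightest probe stood for a gene. A difference counted from 1.5-fold (0.585 log2) among genes detected in the channels compared. The code was tested on simulated data. Of 16631 array symbols, 12622 were current, 3947 were updated and 62 did not match. Named genes are the 10, list genes past 1.5-fold or else the highest and lowest of a list where they add to the account, Apln, Angpt2, Vegfb, Nrp1, Flt4, Sirt1 and the 5 nearest to Aplnr. The genes and lists were chosen with earlier results of these data known. Alternatives covered background, normalization, filter, probe choice and the authors' ratios, and subtracting the local background with no offset was added after seeing the data.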

Additional observations from a re-analysis of the deposited data

Results flagged for a closer look

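In 1 of the 10 genes the diet response had opposite signs in the 2 genotypes: Tek was at -0.19 in the knockout pair and 0.10 in the control pair, a difference of -0.29 on the log2 scale. The same held for 4 list genes past 1.5-fold in the difference of responses. Id1 was at 0.40 in the knockout pair and -0.41 in the control pair, a difference of 0.81. Klf4 was at 0.44 and -0.26 in that order of genotypes, a difference of 0.70. Hey1 was at 0.22 and -0.44, a difference of 0.66, and Ets2 at -0.37 and 0.27, a difference of -0.64. The share of all genes with opposite signs was not counted, so these counts set no gene apart. With the local background subtracted the differences of Hey1, at 0.40, and Klf4, at 0.44, were inside 1.5-fold. With 1 heart per condition none of these differences was tested.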

How the results depend on the processing

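No paired analysis was possible because each genotype had 1 array. The sign of 32 of 50 gene-by-comparison values was the same under every alternative. The number of the 10 genes past 1.5-fold on the knockout array was 1, against 2 with the local background subtracted and 4 with no offset as well. On the control array it was 0, against 1 with offset 0, 1 with median centring, 1 with local background and no offset, and 3 with the authors' deposited ratios. Knockout over control it was 2 on restriction, against 4 and 6 with the local background (offset 50, then none) and 1 with median scaling, and 1 on free feeding, against 4 and 6. For the difference of responses it was 1, against 4 with local background and no offset and 2 with the authors' deposited ratios. Aplnr was past 1.5-fold in no comparison with local background at offset 50. The 2 genes on the knockout array were then Flt1 and Tie1. The 1 gene for the difference was then Tie1, at 0.87. With local background at offset 50 and then none, the median of the 10 was -0.036 and -0.058 on the control array (0.07 as reported) and -0.28 and -0.55 for knockout over control on restriction (-0.06). With no offset it was -0.15 on free feeding (0.04) and -0.33 for the difference (-0.12), which was -0.22 with offset 0 alone. In the same 2 settings Adamts1 turned to -0.37 and -0.61 (0.62) and Vegfb to 0.016 and 0.0043 (-0.66), both knockout over control on free feeding. Cd93 turned to 0.074 and 0.16 on the knockout array (-0.73), and Ccn2 to -0.21 for the difference at offset 50 (0.95). The cause of these shifts was not tested. The share of all genes past 1.5-fold either way, with local background at offset 50 and then none, was 3.48% and 9.74% on the knockout array, 2.28% and 8.08% on the control array, 21.6% and 43.7% for knockout over control on restriction, 19.2% and 35.5% on free feeding, and 5.45% and 17.0% for the difference. The control array had 6.05% with offset 0, 1.85% with median centring and 13.3% with the authors' deposited ratios, which gave 13.3% for the difference too, and median scaling gave 3.22% on restriction. Dim spots limit the precision most for Cdh5 and for Aplnr in the restricted knockout heart.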

Other observations

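Of the lists not yet described, the endothelial junction list had 5 of 8 measured genes above 0 on the knockout array, with a median of 0.07. On the control array it was 8 of 8, with a median of 0.20. Of all genes 50.1% were above 0 on the knockout array and 51.4% on the control array. In the endoglin list 8 of 13 were below 0 on the knockout array and 10 of 14 on the control array, with medians of -0.03 and -0.15. Smad6, an inhibitor of BMP signalling, was the lowest of that list in both pairs, at -0.40 in the knockout pair and -0.58 in the control pair. In the list of oxygen sensors, HIF subunits and their targets, 7 of 9 were above 0 on the knockout array and 7 of 10 on the control array, with a median of 0.12 in each. Egln3, itself a HIF target, was the lowest of that list in both pairs, at -0.76 in the knockout pair and -0.32 in the control pair. Rgcc, a capillary gene of the heart, was at 0.57 in the knockout pair, just inside 1.5-fold. For lymphatic endothelium the mean log2 signal of 5 markers was 6.74 and 6.79 in the knockout hearts and 6.71 and 6.79 in the control hearts, restricted heart first. For endocardium the mean of 5 markers was 6.34 and 6.35 in the knockout hearts and 6.29 and 6.42 in the control hearts.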
